A study of Mus musculus with 12 samples.

Results

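The phagocyte NADPH oxidase subunits Cybb, Cyba, Ncf1, Ncf4 and Rac2 were followed on 12 one-colour mouse microarrays. Every probe that the scanner files name after 1 of these 5 genes was taken, which gave 8 probes, and 7 of them were among the 22362 probes tested (15061 named genes). The cells were PUER cells, a mouse myeloid line that lacks PU.1 itself, expresses PU.1 joined to an estrogen receptor domain that tamoxifen derivatives bind, and grows in IL-3. The 4 groups were cells with an Hnrnpa0 shRNA vector after 24 h in 2 nM 4-hydroxytamoxifen (4-OHT), the same cells before 4-OHT, cells with the control vector after 24 h in 2 nM 4-OHT, and control-vector cells before 4-OHT. Each group had 3 arrays, A, B and C. All groups carry the fusion and a retroviral vector, and infected cells were sorted for GFP and expanded. The series' design text names 3 independent experiments with unique clones of each vector, and it does not say whether a letter marks 1 clone before and after 4-OHT. The treatment protocol mentions vehicle beside 4-OHT and also cells harvested before any 4-OHT. No array is labelled as vehicle, so 4-OHT and the time in culture cannot be told apart.

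The phagocyte oxidase transfers electrons from NADPH across a membrane to oxygen and makes the superoxide with which neutrophils and macrophages attack microbes. Cybb (the catalytic chain, also named Nox2) and Cyba (its partner chain) form the membrane flavocytochrome. Ncf1, the organizer subunit, and Ncf4, a phosphoinositide-binding subunit, wait in the cytosol and join the flavocytochrome together with the small GTPase Rac2 when the cell is stimulated. PU.1 is known to bind and activate the promoters of several of these genes in myeloid cells, and 4-OHT switches the fusion on.

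The probe that reads Cybb across an intron and the single Cyba probe are shown because each spans an intron of a gene of the membrane chains. Both are 60 bases long and span more of the genome than that, 1928 bases for Cybb and 269 bases for Cyba, and each has 2 reading frames with no stop codon. In the coordinates of the scanner files (mouse build mm7) the Cybb probe lies at chrX:7875782-7877709 and the Cyba probe at chr8:121068998-121069266, both on the minus strand.
Cybb A_51_P330331: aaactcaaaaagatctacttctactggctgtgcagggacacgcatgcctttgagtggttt
Cyba A_51_P131800: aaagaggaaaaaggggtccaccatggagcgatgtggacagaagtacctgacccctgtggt

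The second Cybb probe, A_52_P444628, lies at chrX:7870338-7870397, which is 5384 bases downstream of the first in the direction of transcription. It does not span an intron and has no reading frame free of stop codons. It is called the downstream probe here, and A_51_P330331 the intron-spanning probe. The base composition of the pair also differed, with 45% G and C in the intron-spanning probe and 36.7% in the downstream probe.

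RefSeq promoter sequence (build GRCm38.p6) was at hand for 3 of the 5 genes, Cybb, Cyba and Ncf1. The Cybb sequence is shown because Cybb is the subunit with the largest 4-OHT response. It runs from 250 bases before the annotated start to 30 bases after it, chrX:9469295-9469574 on the minus strand. The capitals mark the letters TTCCTC, the opposite strand of GAGGAA, the core of sites that PU.1 is known to bind.
Cybb promoter: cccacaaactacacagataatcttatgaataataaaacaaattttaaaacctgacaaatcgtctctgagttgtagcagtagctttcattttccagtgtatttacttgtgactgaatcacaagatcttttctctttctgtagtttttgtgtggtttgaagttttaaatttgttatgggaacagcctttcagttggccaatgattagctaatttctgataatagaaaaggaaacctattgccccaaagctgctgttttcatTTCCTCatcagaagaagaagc

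GAGGAA was searched on both strands of the 300 bases that RefSeq gives for each gene. Cybb held it 1 time, beginning 10 bases after the annotated start, and the windows of Cyba and Ncf1 did not hold these letters. Of 32851 promoters of this length, 28.3% held it, so its presence at Cybb is a description and not a site. The shorter letters GGAA, which GAGGAA contains, occurred in all 3 windows and in 96% of all promoters. CCAAT, on either strand, began 56 bases before the start in Cybb and was in 37.4% of all promoters.

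Levels are given as the log2 of the scanner's processed signal less the log2 of that array's 75th percentile signal, so 0 is the 75th percentile of the array. That percentile lay between 1196 and 2583 signal units, and 49.6% to 55.5% of the probes were well above background on an array. Hnrnpa0, the target of the shRNA, was lower in shRNA cells on its brighter probe, with log2 differences of -2.10 after 4-OHT (adjusted p = 0.00597) and -1.54 before it (adjusted p = 0.0137). Its other probe, A_52_P625431, had differences of -1.94 after 4-OHT (adjusted p = 0.00597) and -1.37 before it (adjusted p = 0.0198). On the brighter probe neither call held with slide as a fixed block (-1.38 at both times, adjusted p = 0.104 after and 0.110 before 4-OHT) or as a random block (-1.82 and -1.57, adjusted p = 0.0719 and 0.0690). The other probe also lost its calls, with -1.36 and -1.32 for the fixed block (adjusted p = 0.203 and 0.127). With the random block it had -1.70 and -1.43 (adjusted p = 0.0793 and 0.0896). The 12 arrays lay on 3 slides. Slide 1 held control arrays of both times, slide 2 held shRNA arrays before and control arrays after 4-OHT, and slide 3 held shRNA arrays of both times. Arrays of the 2 vectors at the same time therefore never shared a slide.

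The monocyte and macrophage marker list moved with the 4-OHT response. All 9 of its genes were well above background on every array of both groups after 4-OHT, against 4 of 9 in both groups before it, where Itgax, Csf1r, Adgre1, Msr1 and Fcgr1 were not well above background. The list's summed signal, in multiples of the 75th percentile, ranged from 53.4 to 72.3 in shRNA cells after 4-OHT, against 41.3 to 49.6 in shRNA cells before it. In control cells it ranged from 67.5 to 84.4 after 4-OHT, against 44.5 to 58.5 before it. The summed signal of the late granulocyte list ranged from 70.3 to 87.5 in shRNA cells after 4-OHT, against 108 to 121 before it, and from 82.0 to 105 in control cells after 4-OHT, against 120.1 to 158 before it. The sum and the counts of that list ran opposite ways, since 4 of its 8 genes were called higher and 2 lower after 4-OHT in each vector, with median log2 changes of 0.21 in shRNA cells and 0.30 in control cells. Of the 8 myeloid progenitor markers, Cd34 was not well above background in any group and the Ptprc probe in neither group before 4-OHT. That list's summed signal ranged from 79.0 to 109 in shRNA cells after 4-OHT, against 119 to 142 before it, and from 85.4 to 118 in control cells after 4-OHT, against 123 to 143 before it. Of its 7 tested genes, 1 was called higher and 3 lower in each vector. The median log2 changes were -0.28 in shRNA cells and -0.10 in control cells. The mast cell, megakaryocyte and erythroid lists had low sums, which were lower after 4-OHT. The mast cell sum ranged from 0.668 to 0.708 in shRNA cells after 4-OHT, against 1.30 to 1.45 before it, and from 0.586 to 0.738 in control cells after 4-OHT, against 1.27 to 1.35 before it. The megakaryocyte sum ranged from 0.452 to 0.506 in shRNA cells after 4-OHT, against 0.973 to 1.01 before it, and from 0.353 to 0.512 in control cells after 4-OHT, against 0.926 to 1.02 before it. The erythroid sum ranged from 0.198 to 0.239 in shRNA cells after 4-OHT, against 0.371 to 0.453 before it, and from 0.200 to 0.251 in control cells after 4-OHT, against 0.381 to 0.477 before it. In each vector 2 of 4 tested mast cell genes, 2 of 2 megakaryocyte genes and 2 of 3 erythroid genes were called lower and none higher. Of all tested probes, 16.6% were called higher and 20.7% lower in shRNA cells, and 17.6% higher and 22.1% lower in control cells. With so few genes in a list, these counts are a description. B and T cell sums lay between 0.0932 and 0.318 in every group. The part of cell makeup in the results below was not tested, and in bulk RNA fewer cells of a type and less RNA per cell cannot be told apart.

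After 24 h of 4-OHT the 2 membrane chains rose and 2 of the cytosolic subunits fell, in cells of either vector. Cybb on both of its probes and Cyba were higher after 4-OHT, both Ncf1 probes and the Ncf4 probe were lower, and Rac2 did not pass the threshold. In shRNA cells 6 of the 7 tested probes passed an adjusted p of 0.05, against a background of 37.2% of all tested probes, with 3 higher (16.6% of all probes) and 3 lower (20.7%). In control cells the count was also 6 of 7 against a background of 39.7%, with 3 higher (17.6%) and 3 lower (22.1%). The same 6 probes had no overlap between the 3 arrays after and the 3 arrays before 4-OHT in cells of either vector, as did 50.6% of all tested probes in each vector. The counts thus stand beside a response in which a large share of the array took part.

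**Figure D1:**
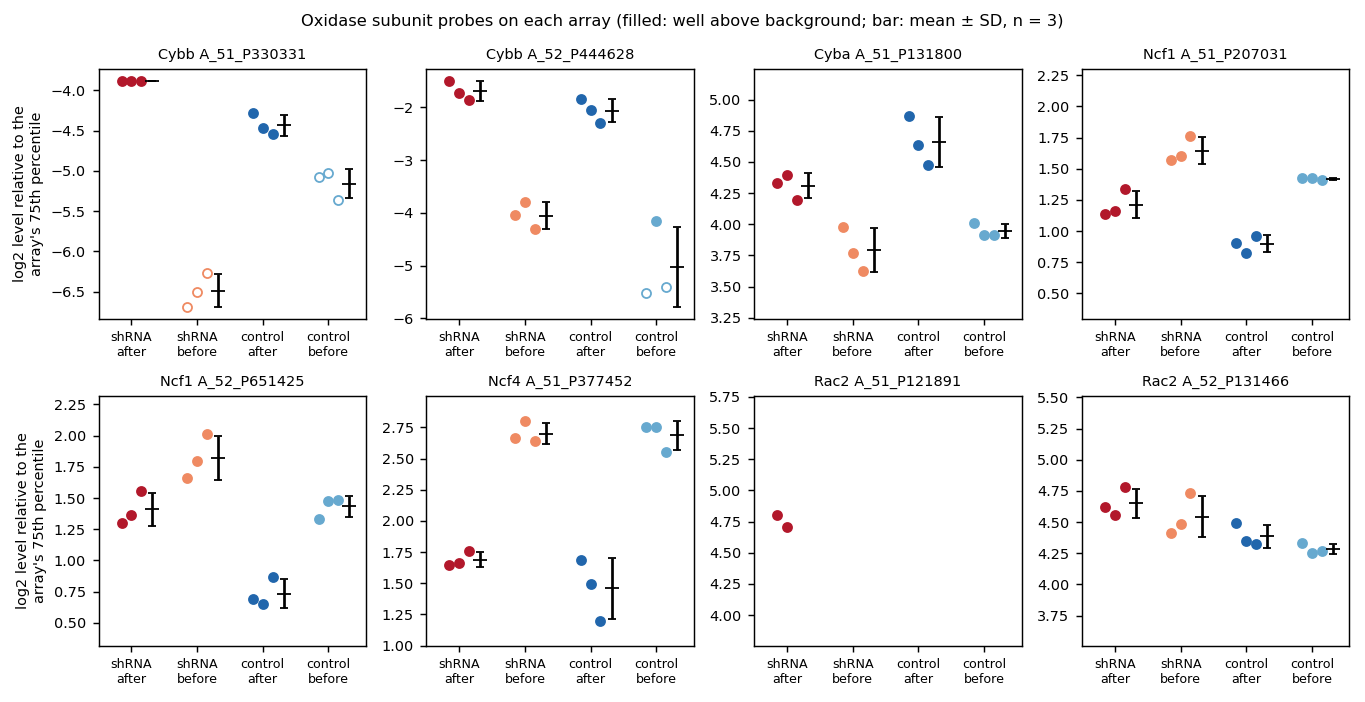
Log2 level relative to the array's 75th percentile (vertical axis, a scale of its own in each panel) of the 8 oxidase subunit probes on each array, by group (horizontal axis). Points are arrays A, B and C from left to right, filled where the probe was well above background, and bars are the mean ± SD of 3 arrays. Cybb and Cyba sit higher after 4-OHT, Ncf1 and Ncf4 lower, and the Rac2 groups overlap with their neighbours, while A_51_P121891 has values on 2 arrays only.

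Cybb, the catalytic chain, was a dim gene before 4-OHT. On the downstream probe its level was -1.49, -1.72 and -1.86 in shRNA cells after 4-OHT, against -4.04, -3.79 and -4.31 in shRNA cells before it. In control cells it was -1.85, -2.06 and -2.29 after 4-OHT, against -5.52, -4.15 and -5.41 before it. All 6 arrays after 4-OHT lay above all 6 arrays before it. Of the control arrays before 4-OHT only array B was well above background, whereas the other groups had the probe well above background on 3 of 3 arrays. The group means ran from -1.69 ± 0.19 in shRNA cells after 4-OHT and -2.06 ± 0.22 in control cells after 4-OHT to -4.05 ± 0.26 in shRNA cells before 4-OHT and -5.03 ± 0.76 in control cells before 4-OHT (SD, n = 3 each). Within a time the ranges of the 2 vectors overlapped.

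The 4-OHT response of the downstream probe was a log2 change of 2.36 in shRNA cells, with a 95% interval of 1.67 to 3.05, or 5.13-fold (adjusted p = 0.000166). In control cells it was 2.97, with an interval of 2.28 to 3.66, or 7.82-fold (adjusted p = 2.76e-05). That second value leans on a group before 4-OHT that was measured above background on 1 array of 3. Over the settings tried, leaving out single arrays aside, the response of the downstream probe lay between 1.59 and 2.62 in shRNA cells and between 1.60 and 3.18 in control cells, lowest with normexp background correction in both.

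The intron-spanning probe was dimmer. Its level was -3.89, -3.88 and -3.88 in shRNA cells after 4-OHT, against -6.69, -6.50 and -6.27 in shRNA cells before it. Control cells had levels of -4.29, -4.47 and -4.54 after 4-OHT, against -5.07, -5.03 and -5.37 before it. The probe was well above background on all 6 arrays after 4-OHT and on none of the 6 arrays before it. Only a bound can therefore be given for its rise, and the bound sets the mean after 4-OHT against the lowest signal well above background on the arrays before it. With the main processing it was at least 2.35-fold higher in shRNA cells after 4-OHT and at least 1.18-fold higher in control cells after 4-OHT. The adjusted p of 7.55e-08 in shRNA cells and 0.000796 in control cells are of the fit on the levels themselves, not of the bounds. Over the settings tried, leaving out single arrays aside, the log2 change in shRNA cells lay between 0.62 and 2.63. Its lowest value was under the log2 bound of 1.23. The call in control cells was lost with normexp background correction (log2 change 0.46, adjusted p = 0.0632) and with low values raised to the lowest signal well above background (0.23, adjusted p = 0.0940).

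**Figure D2:**
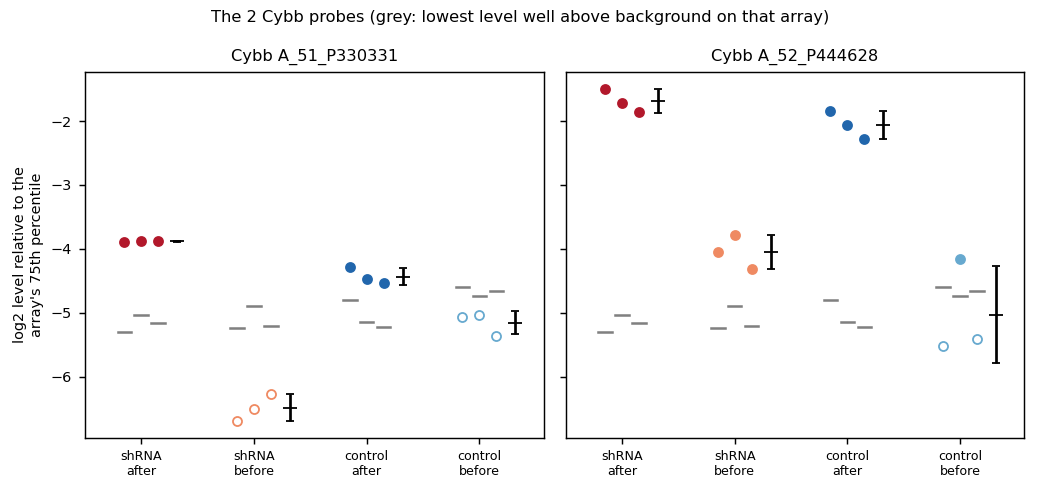
Log2 level relative to the array's 75th percentile (vertical axis) of the 2 Cybb probes on each array, by group (horizontal axis). Filled points were well above background, open points were not, grey marks are the lowest level well above background on that array, and bars are the mean ± SD of 3 arrays. All 6 points of the intron-spanning probe before 4-OHT are open and lie below their grey marks, and on the downstream probe 2 control points before 4-OHT do.

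The difference between vectors in the 4-OHT response was past the threshold for 1 of 22362 tested probes, 0.00447% of them, and that probe was the intron-spanning probe of Cybb. Its response was larger in shRNA cells by 1.88 on the log2 scale, with a 95% interval of 1.50 to 2.26 (adjusted p = 0.0123). Of this difference, 0.55 lay between the vectors after 4-OHT. The larger part lay in the levels before 4-OHT, which averaged -6.49 ± 0.21 in shRNA cells and -5.16 ± 0.18 in control cells (SD, n = 3 each). These levels came from processed signals of 19.7, 18.8 and 20.3 units in shRNA cells before 4-OHT, with scanner errors of 13.6, 13.4 and 12.5 units. In control cells before 4-OHT the signals were 35.5, 57.7 and 39.4 units, with scanner errors of 16.0, 18.7 and 15.3 units. Neither group was well above background on any array, so no fold is given between them.

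The downstream probe of Cybb had a difference of -0.61 between the same responses, with a 95% interval of -1.59 to 0.37 (adjusted p = 0.955), which is opposite in sign to that of the intron-spanning probe and does not overlap its interval. Over the 12 arrays the levels of the 2 Cybb probes had a correlation of 0.70 across arrays that share the 4 groups, whereas those of the 2 Ncf1 probes had 0.96. The difference on the intron-spanning probe was 1.00 with low values raised to the lowest signal well above background (adjusted p = 0.205), 0.16 with normexp background correction (adjusted p = 0.995) and 1.52 with slide as a fixed block (adjusted p = 0.157). It also lost the threshold without any 1 of 7 arrays, namely control arrays A and B before 4-OHT, control array B after it, shRNA array B before it and shRNA arrays A, B and C after it, with differences of 1.82 to 1.88 and adjusted p of 0.0625 to 0.0808.

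Cyba, the partner chain that holds the catalytic chain in the membrane, was bright in every group. Its level was 4.33, 4.40 and 4.20 in shRNA cells after 4-OHT, against 3.98, 3.77 and 3.63 in shRNA cells before it. In the control vector Cyba was at 4.87, 4.63 and 4.48 after 4-OHT, against 4.01, 3.91 and 3.92 before it. Every array after 4-OHT was above every array before it. The rise was 0.52 on the log2 scale in shRNA cells, or 1.43-fold (95% interval 0.26 to 0.77, adjusted p = 0.00522), and 0.71 in control cells, or 1.64-fold (0.46 to 0.97, adjusted p = 0.000624). The responses in the 2 vectors differed by -0.20, with an interval of -0.56 to 0.17 (adjusted p = 0.955). From high to low the group means were 4.66 in control cells after 4-OHT, 4.31 in shRNA cells after it, 3.95 in control cells before it and 3.79 in shRNA cells before it. The vectors overlapped before 4-OHT and not after it. They share no slide at either time, and the share of all probes with no such overlap is not given.

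Ncf1, the organizer that links the cytosolic subunits to the membrane pair, was read by 2 probes 610 bases apart. On A_51_P207031 (chr5:133470708-133470767, minus strand) its level was 1.14, 1.16 and 1.33 in shRNA cells after 4-OHT, against 1.57, 1.60 and 1.77 in shRNA cells before it. In control cells it was 0.90, 0.83 and 0.96 after 4-OHT, against 1.43, 1.42 and 1.41 before it. The fall was -0.43 on the log2 scale in shRNA cells, or 1.35-fold lower (95% interval -0.61 to -0.26, adjusted p = 0.00133), and -0.52 in control cells, or 1.44-fold lower (-0.69 to -0.35, adjusted p = 0.000343). The shRNA arrays before 4-OHT had the highest levels and the control arrays after 4-OHT the lowest, and no 2 of the 4 groups overlapped on this probe. The share of all probes with no overlap between vectors is not given, and the vectors share no slide at either time.

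On the second Ncf1 probe, A_52_P651425 (chr5:133470038-133470097, minus strand), the level was 1.30, 1.37 and 1.56 in shRNA cells after 4-OHT, against 1.66, 1.80 and 2.01 in shRNA cells before it. The control arrays read 0.69, 0.65 and 0.86 after 4-OHT, against 1.34, 1.48 and 1.48 before it. The fall was -0.42 in shRNA cells, or 1.33-fold lower (95% interval -0.65 to -0.18, adjusted p = 0.0113), and -0.70 in control cells, or 1.62-fold lower (-0.94 to -0.46, adjusted p = 0.000429). Both probes thus fell in cells of both vectors. With normexp background correction the fall of A_52_P651425 in shRNA cells no longer passed (-0.37, adjusted p = 0.0617). The responses of the 2 vectors differed by 0.09 on A_51_P207031 (interval -0.16 to 0.33) and by 0.28 on A_52_P651425 (interval -0.05 to 0.62), both with an adjusted p of 0.955.

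Ncf4, the phosphoinositide-binding subunit, had the largest fall among the subunits. Its level on A_51_P377452 (chr15:78345425-78345484, plus strand) was 1.65, 1.66 and 1.76 in shRNA cells after 4-OHT, against 2.66, 2.80 and 2.64 in shRNA cells before it. Control arrays read 1.69, 1.49 and 1.20 after 4-OHT, against 2.75, 2.75 and 2.55 before it. The groups after 4-OHT lay wholly below those before it, and the 2 vectors overlapped at both times. The fall was -1.01 in shRNA cells, or 2.01-fold lower (95% interval -1.27 to -0.75, adjusted p = 6.00e-05), and -1.23 in control cells, or 2.34-fold lower (-1.48 to -0.97, adjusted p = 1.26e-05). The 2 responses differed by 0.21 (interval -0.15 to 0.58, adjusted p = 0.955).

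Rac2, the haematopoietic Rac GTPase that completes the active complex, was bright throughout. On A_52_P131466 (chr15:78644067-78644126, minus strand) its level was 4.62, 4.55 and 4.78 in shRNA cells after 4-OHT, against 4.42, 4.49 and 4.73 in shRNA cells before it. Control cells had 4.49, 4.35 and 4.32 after 4-OHT, against 4.33, 4.25 and 4.27 before it. The log2 change was 0.11 in shRNA cells (95% interval -0.11 to 0.32, adjusted p = 0.406) and 0.10 in control cells (-0.11 to 0.31, adjusted p = 0.440). The scanner marked the spot as saturated on 2 of the 3 shRNA arrays after 4-OHT, so the level there may be understated.

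The other Rac2 probe, A_51_P121891 (chr15:78643974-78644033, minus strand), was not tested, because its spot was marked as a non-uniform outlier on 10 of the 12 arrays. The spot was usable on shRNA arrays A and B after 4-OHT, with levels of 4.80 and 4.71. With the marked spots kept, the level ranged from 4.71 to 4.97 in shRNA cells after 4-OHT and from 4.62 to 4.94 in shRNA cells before it, and from 4.56 to 4.81 in control cells after 4-OHT and from 4.52 to 4.60 in control cells before it. The change was then 0.06 in shRNA cells (adjusted p = 0.697) and 0.09 in control cells (adjusted p = 0.526).

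**Figure D3:**
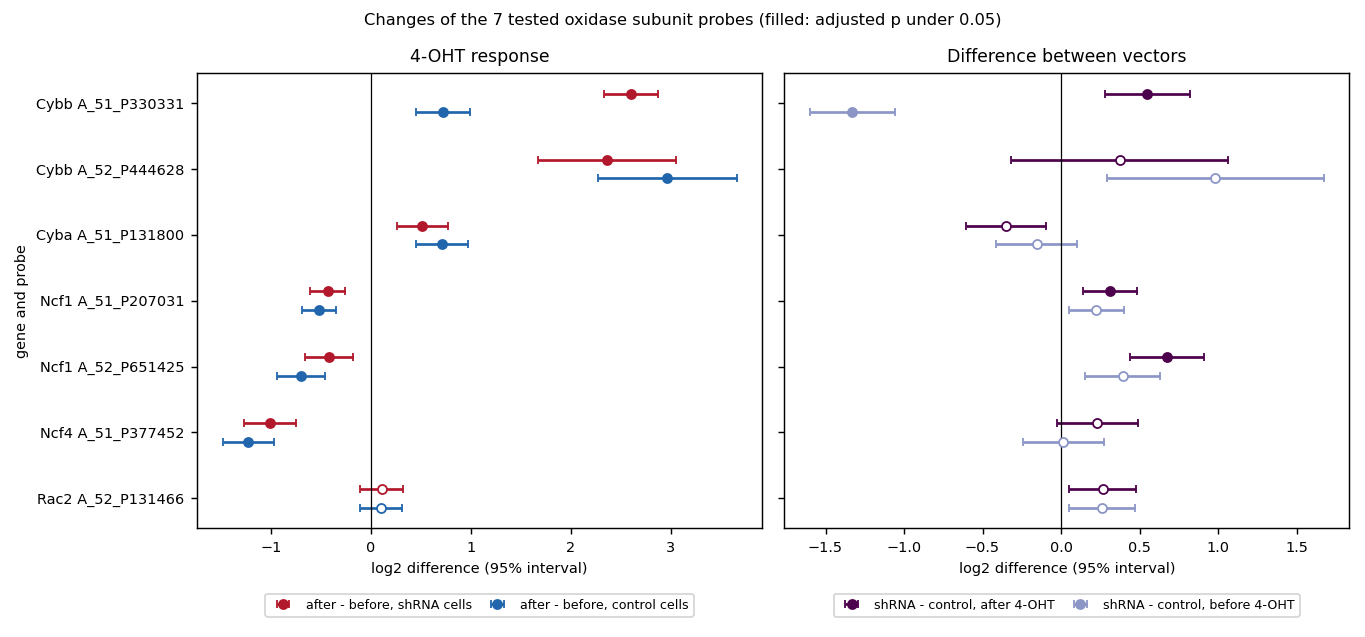
Log2 differences with 95% intervals (horizontal axis) for the 7 tested oxidase subunit probes (vertical axis). The left panel shows the 4-OHT response in shRNA and control cells, and the right panel shows shRNA minus control cells after and before 4-OHT, with filled points where the adjusted p was under 0.05. On the left 6 of 7 probes are filled in each vector, and on the right 3 are filled after 4-OHT and 1 before it, where the filled Cybb point compares signals that were not well above background.

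Within single slides the 6 probes that passed changed in the same directions as over all arrays. Within slide 3, which held 3 shRNA arrays after and 1 before 4-OHT, the log2 changes were 2.62 for the downstream Cybb probe, 0.68 for Cyba, -0.55 and -0.60 for the Ncf1 probes and -0.95 for Ncf4. Ncf1 A_51_P207031 and A_52_P651425 no longer passed there (adjusted p = 0.0605 and 0.0644), and Rac2 A_52_P131466 had a change of -0.08, opposite in sign to the 0.11 over all arrays and past the threshold in neither. Within slide 1, with 1 control array after and 3 before 4-OHT, the changes were 3.18 for the downstream Cybb probe, 0.92 for Cyba, -0.52 and -0.74 for the Ncf1 probes and -0.998 for Ncf4. With 1 array on a side of each comparison, these fits assume that it varies like the other arrays, and the values are given as a description. In fits that left out 1 array, all 6 calls were made in each vector.

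After 4-OHT both Ncf1 probes and 1 Cybb probe were higher in shRNA cells than in control cells. A_52_P651425 was 1.60-fold higher in shRNA than in control cells after 4-OHT (log2 difference 0.67, 95% interval 0.44 to 0.91, adjusted p = 0.0124), and A_51_P207031 was 1.24-fold higher (0.31, 0.14 to 0.49, adjusted p = 0.0269). The intron-spanning Cybb probe was 1.46-fold higher in shRNA cells (0.55, 0.28 to 0.82, adjusted p = 0.0202), and the downstream Cybb probe had a difference of 0.37 (-0.32 to 1.06, adjusted p = 0.419). Thus 3 of the 7 subunit probes passed after 4-OHT, against a background of 16.9% of all tested probes. Cyba had a difference of -0.35 (-0.61 to -0.10, adjusted p = 0.0608), Ncf4 of 0.23 (-0.03 to 0.49, adjusted p = 0.185) and Rac2 of 0.27 (0.05 to 0.48, adjusted p = 0.0790).

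These calls did not hold with slide as a block, and the slides separate the vectors. With slide as a fixed block none of the 7 subunit probes passed after 4-OHT, with 0.37 and 0.14 for Ncf1 A_52_P651425 and A_51_P207031 (adjusted p = 0.845 and 0.905) and 0.30 for the intron-spanning Cybb probe (adjusted p = 0.864). With slide as a random block the differences were 0.57, 0.25 and 0.43 (adjusted p = 0.151, 0.246 and 0.204), again with none passing. The standard error of Ncf1 A_52_P651425 was 0.175 with the fixed block, against 0.107 without a block, and what moved the calls was not tested. Leaving out single arrays also changed the calls, in fits where 194 to 4645 of all probes passed. A_52_P651425 lost the threshold without shRNA array C after 4-OHT (0.60, adjusted p = 0.0502), and A_51_P207031 without shRNA array B or C or control array A or B after 4-OHT (0.25 to 0.34, adjusted p = 0.0559 to 0.0891). The intron-spanning Cybb probe lost it without shRNA array B or C or control array B after 4-OHT (0.53 to 0.55, adjusted p = 0.0572 to 0.0641), and turned to -0.11 with normexp background correction (adjusted p = 0.657).

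Before 4-OHT the vectors differed at 1 of the 7 subunit probes, against a background of 0.362%. This was the intron-spanning Cybb probe, lower in shRNA cells in signals that were not well above background in either group (adjusted p = 0.00615, and 0.118 with slide as a fixed block). The downstream Cybb probe had the opposite sign, a difference of 0.98 (95% interval 0.29 to 1.67, adjusted p = 0.116). Without control array B before 4-OHT, the only array of that group with the probe well above background, the difference was 1.42 (adjusted p = 0.0433). The other differences before 4-OHT were 0.39 and 0.23 for Ncf1 A_52_P651425 and A_51_P207031 (adjusted p = 0.0926 and 0.135), 0.26 for Rac2 (adjusted p = 0.150), 0.01 for Ncf4 (adjusted p = 0.950) and -0.16 for Cyba (adjusted p = 0.437).

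Genes that work around the subunits were taken from lists, with 1 probe a gene, and set beside the same background, which was 16.6% of all probes higher and 20.7% lower in shRNA cells and 17.6% higher and 22.1% lower in control cells. Of 4 tested genes of the complex and its assembly, 1 fell in each vector, Noxo1, an organizer related to Ncf1 in non-phagocyte oxidases (-0.88 in shRNA cells, adjusted p = 0.000366, and -0.79 in control cells, adjusted p = 0.000676). None rose, and the list had a median change of -0.11 in shRNA cells and -0.01 in control cells, against -0.06 and -0.05 over all probes. Duox2, the only tested gene of 7 other catalytic and maturation genes, fell by 0.55 in shRNA cells (adjusted p = 0.0209) and was at -0.30 in control cells (adjusted p = 0.167).

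Receptors on the list of oxidase triggers mostly rose. The list also holds Fcgr2b, an inhibitory immunoglobulin G receptor that does not trigger the oxidase. It is counted among the genes that rose, 1.42-fold in shRNA cells and 1.52-fold in control cells (adjusted p = 0.000341 and 8.87e-05). Of 12 tested, 9 rose and 2 fell in shRNA cells, and 9 rose and 1 fell in control cells, with median log2 changes of 0.82 and 0.96. Higher calls made up 16.6% and 17.6% of all tested probes in these comparisons. Fcgr1, Fpr1 and Fpr2 met the filter on signal over background only through the arrays after 4-OHT, so a higher call was favoured for them. Fpr2 was at least 18.0-fold higher in shRNA cells after 4-OHT (adjusted p = 1.73e-07) and at least 13.1-fold in control cells (adjusted p = 1.77e-07), and Fpr1 was at least 12.3-fold higher in control cells (adjusted p = 4.98e-07). Fpr1 rose 16.3-fold in shRNA cells, where 1 of the 3 arrays before 4-OHT had it well above background (adjusted p = 6.53e-07). Fcgr1, the high-affinity immunoglobulin G receptor, was at least 24.8-fold higher in shRNA cells and at least 21.6-fold in control cells (adjusted p = 1.02e-07 and 2.18e-08). Itgam, a chain of the complement receptor that takes up opsonized particles, rose 3.71-fold in shRNA cells and 5.22-fold in control cells (adjusted p = 2.48e-06 and 3.51e-07). Fcgr1 and Itgam are also on the macrophage marker list. The adjusted p given beside a bound is of the fit on the levels themselves.

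Of 19 tested kinases, exchange factors and GTPase regulators, 9 rose and 3 fell in shRNA cells, and 8 rose and 4 fell in control cells, with median changes of 0.02 and 0.13. Pak1, a kinase that Rac activates and that phosphorylates Ncf1, rose 7.79-fold in shRNA cells and 8.34-fold in control cells (adjusted p = 8.38e-09 and 5.97e-09). Prkcd, a protein kinase C that also phosphorylates Ncf1, rose 3.60-fold in shRNA cells and 4.56-fold in control cells (adjusted p = 1.17e-07 and 2.83e-08). Pik3cd, a leukocyte phosphoinositide 3-kinase, rose 3.55-fold in shRNA cells and 4.07-fold in control cells (adjusted p = 1.99e-07 and 7.51e-08). Tiam1, a Rac exchange factor, fell 2.71-fold in shRNA cells and 3.36-fold in control cells (adjusted p = 1.18e-07 and 2.38e-08).

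**Figure D4:**
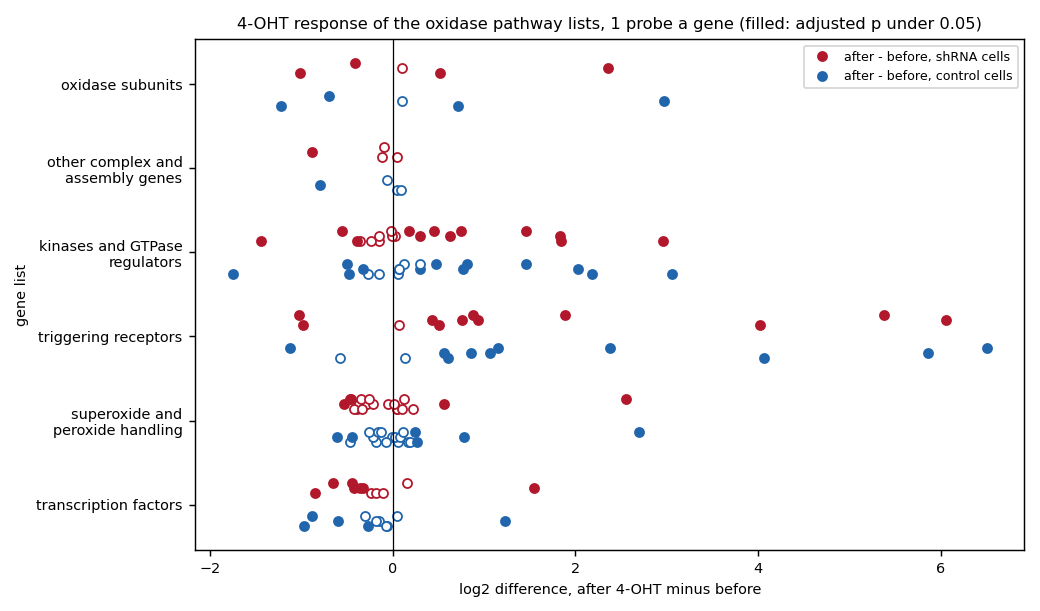
Log2 change after 4-OHT (horizontal axis) of the tested genes in 6 oxidase pathway lists (vertical axis), in shRNA cells (upper row of each list) and control cells (lower row). Each point is 1 gene, read by its probe of highest mean level, and filled points had an adjusted p under 0.05. The list of triggering receptors, which also holds the inhibitory Fcgr2b, spreads furthest to the right, with 9 of 12 filled above 0 in each vector. The subunits lie on both sides of 0.

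Of 20 tested genes of superoxide and peroxide handling, 2 rose and 3 fell in shRNA cells, and 4 rose and 2 fell in control cells, with median changes of -0.24 and 0.01. The 5 of 20 and 6 of 20 called are below the shares of all tested probes called in either direction, 37.2% in shRNA cells and 39.7% in control cells. Gpx4, Gsr, Mpo, Sod2 and Txn1 were saturated on every usable array of a control group, before or after 4-OHT, and none passed in control cells. Saturation may hide changes, so the low share is a description. Prdx4, the peroxiredoxin of the endoplasmic reticulum, rose 5.89-fold in shRNA cells and 6.50-fold in control cells (adjusted p = 6.01e-08 and 3.18e-08). Txnrd1, which reduces thioredoxin, rose 1.48-fold in shRNA cells and 1.72-fold in control cells (adjusted p = 0.000635 and 5.64e-05). Prdx3, the mitochondrial peroxiredoxin, fell 1.44-fold in shRNA cells and 1.52-fold in control cells (adjusted p = 0.00274 and 0.00103). Prdx6 had a change of -0.22 in shRNA cells (adjusted p = 0.0713) and fell by 0.45 in control cells (adjusted p = 0.00204).

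Of 11 tested transcription factors known to bind subunit promoters, 1 rose and 5 fell in shRNA cells, and 1 rose and 4 fell in control cells, with median changes of -0.32 and -0.19. Irf8, which binds such promoters together with PU.1, rose 2.93-fold in shRNA cells and 2.34-fold in control cells (adjusted p = 2.07e-07 and 9.74e-07). Cebpa fell 1.80-fold in shRNA cells and 1.95-fold in control cells (adjusted p = 6.36e-06 and 2.02e-06), and Hoxa9, a homeodomain factor of progenitors, fell 1.57-fold in shRNA cells and 1.85-fold in control cells (adjusted p = 1.52e-05 and 1.27e-06). The probe named after Spi1, the gene of PU.1, read 1.34-fold lower in shRNA cells and 1.51-fold lower in control cells (adjusted p = 0.00826 and 0.000947). The cells lack PU.1 itself, so this signal is not a level of normal PU.1. Whether the Spi1 probe reads the fusion transcript was not tested.

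Between vectors no gene of these lists passed before 4-OHT, and none differed in its 4-OHT response between vectors. After 4-OHT, shRNA cells had higher Tiam1 (0.30, adjusted p = 0.0255), Vav1, another Rac exchange factor (0.29, adjusted p = 0.0276), Prdx6 (0.42, adjusted p = 0.0181) and Cebpa (0.31, adjusted p = 0.0232). Higher calls made up 8.15% and lower calls 8.80% of all tested probes in this comparison. The shRNA cells had lower C5ar1, the receptor of the complement fragment C5a (-1.15, adjusted p = 0.0200), Clec7a, the beta-glucan receptor (-0.35, adjusted p = 0.0308), and Tlr4, the lipopolysaccharide receptor (-0.46, adjusted p = 0.0169). Gsr, which reduces glutathione (-0.51, adjusted p = 0.0235), Nqo1, a quinone reductase (-0.63, adjusted p = 0.0172), and Txnrd1 (-0.49, adjusted p = 0.0151) were lower as well. These 10 genes carry the same limit as the subunits, since the vectors share no slide at that time and with slide as a fixed block 1 probe on the whole array was called, which was not among the 3789 called without it.

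For the brightest probe of each subunit, the 3 genes of most like pattern were taken by the smallest root mean square difference between centred log2 levels over the 12 arrays, among 15546 probes well above background on all of them. Those nearest to Cybb were Oosp1, Mmp8 and Ltb, at differences of 0.42, 0.43 and 0.47. Genes that were not well above background before 4-OHT, as Cybb was in most control arrays, were not among the candidates. Nearest to Cyba were Arl2bp, Rtkn2 and Tor3a, at 0.05, 0.07 and 0.07. For Ncf1 they were Tex15, Lrba and Ero1b, at 0.07, 0.08 and 0.08, and for Ncf4 Ly6i, Trim45 and the immunoglobulin G receptor gene Fcgr4, at 0.08, 0.09 and 0.10. Rac2 was nearest to Vps35l, Fam98a and Psmb7, at 0.05 each. The correlations ran from 0.95 to 0.99 over arrays that share the 4 groups.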

How the data were processed

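RNA of 12 PUER cultures was labelled with Cy3 and hybridized to 1 array each. Per the file headers, the deposited intensity values, the processed signals, were made with Agilent Feature Extraction 9.5.3.1, with its background subtraction and detrending. The deposited series value table, which held the same intensity values to within 0.497%, was used as an alternative. Outlier marks and other flags in the deposited files (values other than intensities) were used to drop spots.

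From the processed signals, spots of a probe were averaged without outlier-marked ones, and log2 values less the array's 75th percentile over all non-control spots were computed. Probes well above background on at least 3 of 12 arrays, with usable spots on at least 2 arrays of each group, were tested with limma 3.58.1 (R 4.3.3) with 4 group means, 5 contrasts and Benjamini-Hochberg adjustment over 22362 probes at 0.05. The fit was tested on simulated data with independent normal values. The simulation had no slide effect, background floor or saturation, so it does not bear on those limits. The number of arrays limits the precision, and p-values measure the spread between these arrays.

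Symbols are those of the files, updated through RefSeq tables for 22951 probes by transcript and 3109 by older symbol. Members, lists and the rule for named genes were chosen with earlier results of these data known. Every subunit probe was named, along with Hnrnpa0, the 4 genes of each list with the largest change past the threshold in control cells, any list gene past it between vectors, and 3 genes of like pattern per subunit. Duox2 was named beyond that rule, after its values were seen. A further list gene is not reported here and was left out of the counts. Alternatives changed the background correction, normalization, filter, variance model, slide, replicate block, probe choice and arrays.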

Additional observations from a re-analysis of the deposited data

Results flagged for a closer look

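The intron-spanning probe of Cybb, A_51_P330331, had a 4-OHT response that was larger in shRNA cells than in control cells by 1.88 on the log2 scale (limma, adjusted p = 0.0123), and it was drawn out because the test of the difference between vectors passed for it. The level after 4-OHT was -3.88 in shRNA cells and -4.43 in control cells, and before 4-OHT it was -6.49 in shRNA cells and -5.16 in control cells, where the probe was not well above background on any array. On the downstream probe A_52_P444628 the same difference was -0.61 (adjusted p = 0.955). Groups of 3 arrays were not examined for single arrays that stand apart.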

How the results depend on the processing

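The 4-OHT calls of the subunits were the steadiest. In each vector 6 probes passed in the main analysis and whenever 1 array was left out. Over all other settings 4 to 6 passed, with 4 of the 5 tested where each gene had 1 probe. Over all probes, 8328 calls in shRNA cells became 3622 within slide 3, and 8869 in control cells became 4683 within slide 1, which hold fewer arrays. Leaving out 1 array gave 6690 to 9209 and 7376 to 9196.

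After 4-OHT, the 3789 probes that differed between vectors became 1883 with the percentile taken without outlier-marked spots (29.9% of them higher, against 48.1%), 2512 with 1 probe per gene, 462 without a filter on dim probes, 1 with slide as a fixed block and 0 with slide as a random block. Of the 3 subunit probes, 1, 1, 1, 0 and 0 passed under these settings in the same order. With 1 probe per gene, Ncf1 A_52_P651425 was the sole probe of these 3 that was tested, and it passed. Leaving out 1 array gave 194 to 4645 probes and 0 to 5 subunit probes. Cybb A_51_P330331 turned to -0.11 with normexp.

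Before 4-OHT, the 81 probes that differed became 169 with raised low values, 231 without outlier-marked spots in the percentile (9.96% higher, against 42.0%), 19 without the filter, 3 with normexp, 464 with quantile normalization (14.4% higher), 307 with the replicate block, 0 with slide as a fixed block, 2 with slide as a random block, 1126 with trended and robust variance and 165 with a filter of 6 arrays. Leaving out 1 array gave 2 to 904. The 1 subunit probe became 0 with raised low values, normexp and slide as a fixed block, and 2 with the replicate block and with trended variance. With 1 probe per gene that probe was not tested, and 0 of the 5 tested subunit probes passed. Leaving out 1 array gave 1 or 2.

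For the difference in response, the 1 probe became 0 with raised low values, the percentile without marked spots, no filter, normexp and quantile normalization. It also became 0 with the replicate block, either slide block and trended variance. With 1 probe per gene the probe, Cybb A_51_P330331, was not tested, so that setting cannot speak to it. In the main analysis limma left 1145 probes at an unadjusted p under 0.05. Leaving out 1 array gave 0 to 2 probes and 0 or 1 subunit probe. The cause of these changes was not tested.

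The labels do not say whether the letters A, B and C pair the arrays. Same-letter deviations from the group means correlated between -0.06 and 0.29 over probes. Within a vector, before against after 4-OHT, they correlated at 0.24, 0.05 and 0.16 for control A, B and C. The highest values with another letter were 3.9e-05, 0.17 and -0.05. For shRNA A, B and C they were 0.06, -0.02 and 0.19, against 0.14, 0.03 and -0.09. The same letter was thus the higher for control A and C and shRNA C, and the lower for the rest. The arrays were not treated as pairs. With the replicate block, Cyba passed after 4-OHT (-0.35, adjusted p = 0.0231) and Ncf1 A_52_P651425 before it (0.39, adjusted p = 0.0449). Raised low values and the percentile without marked spots were chosen after seeing the data. Signal over background limits Cybb, and saturation limits Rac2 and some genes of superoxide and peroxide handling.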
